A study of Homo sapiens with 2 samples.

Results

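A set of 10 genes of glucose use and the low-oxygen response was followed in A375 melanoma cells that had outlived attack by cytotoxic T lymphocytes (CTLs): VEGFA, TXNIP, SLC2A1, HK2, LDHA, ENO1, PDK1, BNIP3, NDRG1 and ADM. They were chosen by symbol, with earlier results of these data known, and all 10 were among the 33538 genes counted. A375 is an established human melanoma line that carries mutant BRAF. The CTL-tolerant persister library came from A375 cells left alive after 15 days with CTLs against the cancer-testis antigen NY-ESO-1, kept in medium holding 7.5 ng/mL recombinant IL-2, with new CTLs given at intervals of 3 days. The parental library came from untreated A375 cells (0 days of coculture), and whether their medium held IL-2 is not stated in the labels. Cells were trypsinized, and the 3' v3 chemistry of 10x Chromium was used for both libraries. Each group was 1 library, so no difference below has a replicate check and no test between groups was possible.

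After filters on depth, mitochondrial RNA and T cell markers, 6605 of 7144 persister barcodes and 10630 of 10751 parental barcodes were kept, with 79546026 and 88110998 UMIs (unique molecular identifiers, each standing for 1 captured RNA molecule). The median kept cell held 11284 UMIs in the persister library and 7590 UMIs in the parental library, with 7.53% and 5.92% of UMIs from the mitochondrial genome. MKI67, a marker of cycling cells, had at least 1 UMI in 43.3% of persister cells and 77.9% of parental cells, and in 30.6% and 69.5% when every cell was thinned to 5000 UMIs. The 15 T cell markers summed to 10.6 counts per 1000000 UMIs (CPM) in kept persister cells, where none was at 0, and to 3.29 CPM in kept parental cells, where CD2, CD3G, CD8B, GZMB and PRF1 were at 0. The 162 persister barcodes left out for T cell markers had 7754 CPM of the same list. Of 12 melanoma markers, 7 reached 5 CPM in each library, while TYR was at 0 in both and MLANA was at 0 in parental cells. The libraries shared 38 barcodes, 32 of them kept in both.

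Cells short of oxygen stabilise HIF1A, which pairs with ARNT, binds the letters ACGTG or GCGTG and raises the transcription of glycolytic enzymes, glucose transporters and VEGFA. VHL marks HIF1A for destruction when oxygen is present. TXNIP, a binder of thioredoxin that also draws glucose transporters off the cell surface, is transcribed by the glucose sensor MondoA (the product of MLXIP) with its partner MLX from a carbohydrate response element. Several genes called hypoxia targets, VEGFA, DDIT4 and STC2 among them, are also known targets of ATF4, the transcription factor of the amino acid and unfolded protein stress responses.

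Of the 10 genes, 8 have a promoter window in the RefSeq table (GRCh38.p14, 250 bases before and 50 after a transcript start). VEGFA and NDRG1 are the others. Those of TXNIP, LDHA and BNIP3 are shown up to the start, because TXNIP was higher in persister cells while LDHA and BNIP3 were lower, and all hold elements of the factors named above. In TXNIP, capitals mark a pair of CACGAG letters set 5 bases apart, the arrangement known as its carbohydrate response element. TXNIP also holds 2 matches to GCGTG, beginning 163 and 54 bases before the start, which are left in lower case. In LDHA, which encodes the enzyme that turns pyruvate into lactate, and BNIP3, which encodes a mitochondrial protein of mitophagy, capitals mark ACGTG and GCGTG, which read CACGT and CACGC when they lie on the opposite strand.
TXNIP, chr1:145996580-145996829, minus strand: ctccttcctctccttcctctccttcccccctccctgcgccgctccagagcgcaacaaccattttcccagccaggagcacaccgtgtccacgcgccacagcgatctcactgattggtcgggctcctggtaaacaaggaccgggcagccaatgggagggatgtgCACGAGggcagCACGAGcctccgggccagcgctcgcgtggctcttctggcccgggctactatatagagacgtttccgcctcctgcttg
LDHA, chr11:18394313-18394562, plus strand: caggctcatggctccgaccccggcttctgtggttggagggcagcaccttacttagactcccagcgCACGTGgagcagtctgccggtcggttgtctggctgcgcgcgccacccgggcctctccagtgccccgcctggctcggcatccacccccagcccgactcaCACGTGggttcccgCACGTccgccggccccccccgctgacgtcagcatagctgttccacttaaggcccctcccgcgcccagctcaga
BNIP3, chr10:131981924-131982173, minus strand: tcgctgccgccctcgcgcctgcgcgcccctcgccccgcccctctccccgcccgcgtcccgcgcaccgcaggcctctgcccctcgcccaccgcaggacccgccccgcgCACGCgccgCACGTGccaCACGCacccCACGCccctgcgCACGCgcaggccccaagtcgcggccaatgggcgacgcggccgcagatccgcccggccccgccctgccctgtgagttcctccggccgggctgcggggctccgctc

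The TXNIP pair began 88 bases before the start. Searched on both strands, it was present in 2 of 35116 windows (0.0057%), those of TXNIP and KCTD5. LDHA held 5 matches to ACGTG, 4 of them from 2 copies of CACGTG, a palindrome that counts once on each strand, and 1 match to GCGTG after the start. BNIP3 held 2 matches to ACGTG from 1 CACGTG, and 4 to GCGTG. Taking the window nearest each gene's annotated start, 7 of the 8 genes held ACGTG or GCGTG, against 48.4% of all windows, with PDK1 the exception. CACGTG was in 2 of the 8 and in 7.26% of all windows. These counts rest on the choice of window. A further PDK1 window, at a start 717 bases from the annotated one, held 2 matches to ACGTG. A further HK2 window held 2 copies of CACGTG. TGATGNAA, a form of the composite element bound by ATF4 with a C/EBP partner, was in 0 of the 8 and in 3.62% of all windows. A match says only that the letters are there.

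VEGFA, the secreted growth factor that draws new vessels, and TXNIP were the 2 members at least 2-fold higher in persister cells. LDHA, PDK1 and ADM were at least 2-fold lower, and the other 5 lay between. Genes were called measured at 5 CPM or more in 1 library or both, and 9938 were. Of these, 10.1% passed 2-fold upward in persister cells and 10.8% passed it downward. Counts of 2 and 3 in 10 members are too few to be set apart from those shares. The members' median log2 difference, on the log2(CPM + 1) scale that understates differences of low genes, was -0.53, and the median of all measured genes was -0.15.

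VEGFA (chr6:43770184-43786487, GRCh38, plus strand) had 7921 UMIs or 99.6 CPM in persister cells (95% interval 97.4 to 102), against 1945 UMIs or 22.1 CPM in parental cells (21.1 to 23.1). That is 4.51-fold higher (4.29 to 4.74), a log2 difference of 2.12 and place 290 of 9938 from the top. TXNIP (chr1:145992435-145996600, minus strand) had 1979 UMIs or 24.9 CPM in persister cells (23.8 to 26.0), against 639 UMIs or 7.25 CPM in parental cells (6.70 to 7.84), which is 3.43-fold higher (3.14 to 3.76) and place 452. The intervals are exact Poisson intervals and cover counting error only, here and below. Over cells with 0 T cell markers the log2 differences were 2.12 for VEGFA and 1.66 for TXNIP, against 1.65 for TXNIP in all kept cells. From the T cell markers, RNA of T cells made up an estimated 0.0936% of the kept persister UMIs, which would supply 0.0649% of its VEGFA and 0.238% of its TXNIP. Kept cells had been filtered on 6 of those 15 markers, which by itself lowers the estimate. It was scaled to the T cell marker barcodes, which also held 624 CPM of melanoma markers.

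Of the members that take up and break down glucose, SLC2A1, HK2 and ENO1 were lower by less than 2-fold. SLC2A1, the glucose transporter GLUT1, had 36.7 CPM in persister cells and 43.8 CPM in parental cells, 0.839-fold (0.799 to 0.880). HK2, the hexokinase that phosphorylates glucose, had 6.71 CPM in persister cells and 10.6 CPM in parental cells, 0.634-fold (0.569 to 0.706). ENO1, the enolase of lower glycolysis, had 1243 CPM in persister cells and 1726 CPM in parental cells, 0.720-fold (0.714 to 0.726). All 3 intervals lay below 1 and none of the 3 passed 2-fold.

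LDHA (chr11:18394388-18408425, plus strand) had 16971 UMIs or 213 CPM in persister cells, against 45929 UMIs or 521 CPM in parental cells, 2.44-fold lower (2.40 to 2.49). PDK1 is a kinase that restrains pyruvate dehydrogenase, the mitochondrial enzyme that oxidises pyruvate. PDK1 had 456 UMIs or 5.73 CPM in persister cells and 1025 UMIs or 11.6 CPM in parental cells, 2.03-fold lower (1.82 to 2.27). So the persister cells had less mRNA both of the enzyme that makes lactate and of a kinase that restrains pyruvate oxidation. As given below, DLAT of pyruvate dehydrogenase itself was also lower and the lactate exporter SLC16A3 higher. Use of pyruvate was not measured.

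Of the other hypoxia members, BNIP3 and ADM were lower and NDRG1 did not differ beyond counting error. BNIP3 had 84.3 CPM in persister cells and 153 CPM in parental cells, 0.552-fold (0.536 to 0.568). ADM, which encodes the vasodilator peptide adrenomedullin, had 264 UMIs or 3.32 CPM in persister cells and 617 UMIs or 7.0 CPM in parental cells, 2.11-fold lower (1.82 to 2.45), and it reached 5 CPM only in the parental library. NDRG1, a stress-response gene, had 7.59 CPM in persister cells and 7.26 CPM in parental cells, 1.05-fold (0.934 to 1.17), and is the member whose interval spans 1. Across the 10 genes the interval lay above 1 for 2, below 1 for 7 and across 1 for 1.

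Set against the other 8 hypoxia and glycolysis members (all but TXNIP), VEGFA lay far above. Their log2 differences ran from -1.28 to 0.06 with a median of -0.72, 7 of 8 being below 0. VEGFA exceeded that median by 2.84. Since the members were chosen with earlier results of these data known, this excess is a description only. Summed, the 8 genes had 1600 CPM in persister cells and 2480 CPM in parental cells. Among the 20 other measured genes of a wider hypoxia list, described below, VEGFA was not the highest. Their log2 differences ran from -2.156 to 2.645 with a median of -0.24, 13 being below 0.

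Scaling bears on the counts. With TMM factors the log2 differences moved up by 0.12, 1 member (LDHA) in place of 3 was at least 2-fold lower, and PDK1 and ADM stood at 1.87-fold and 1.95-fold lower. Of all genes past 2-fold, 58.8% were higher with TMM and 48.3% without. With cells split by the cell cycle list in place of MKI67, which put 473 parental cells in the low class, the log2 difference of TXNIP in cells of low cycling was 1.03, against 1.70 in MKI67-negative cells.

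**Figure D1:**
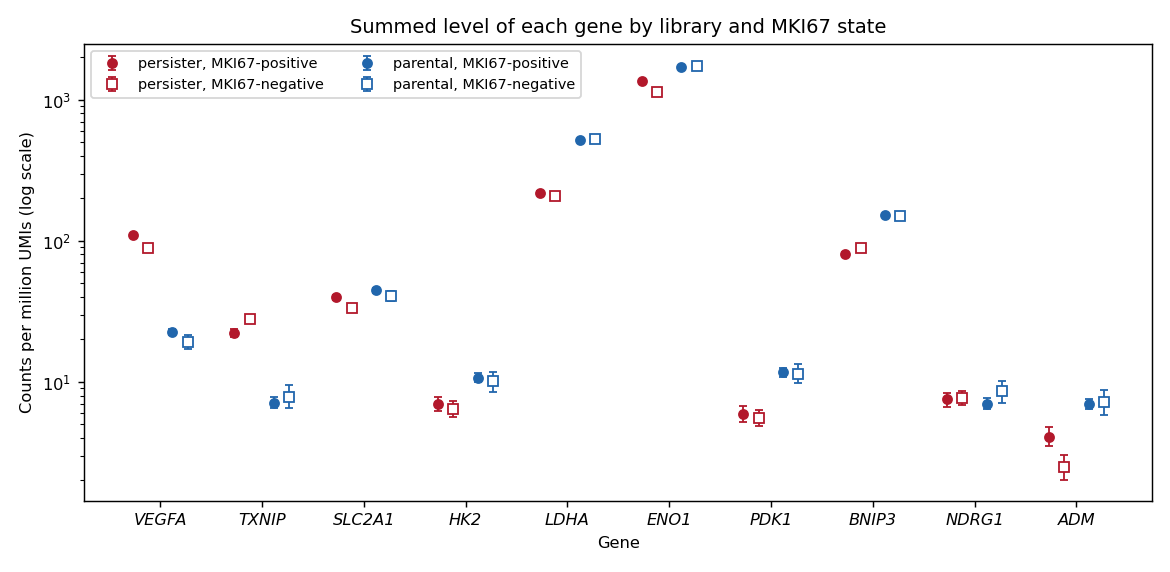
Summed level of each gene in CPM (log axis) in persister cells (red) and parental cells (blue), for MKI67-positive (filled circles) and MKI67-negative cells (open squares). Bars are 95% exact Poisson intervals of counting error. VEGFA and TXNIP are higher in persister cells in both states, and LDHA, ENO1 and BNIP3 are lower in both.

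Because fewer persister cells carried MKI67, each comparison was repeated within MKI67 states. The split does not match the libraries for cycling. A list of 34 cell cycle genes summed to 1000 CPM in MKI67-negative persister cells and 4078 CPM in MKI67-negative parental cells. In MKI67-positive cells it summed to 5067 CPM in persister and 6592 CPM in parental cells. In MKI67-positive cells VEGFA had 109 CPM in persister and 22.6 CPM in parental cells (4.83-fold, 4.56 to 5.11), and in MKI67-negative cells 89.0 CPM in persister and 19.2 CPM in parental cells (4.65-fold, 4.11 to 5.27). TXNIP had 22.3 CPM in persister and 7.13 CPM in parental cells that were MKI67-positive (3.12-fold, 2.80 to 3.48), and 27.7 CPM in persister and 7.86 CPM in parental cells that were MKI67-negative (3.53-fold, 2.90 to 4.32). Both genes were thus higher in persister cells in either state, by amounts whose intervals overlap between the states.

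Among MKI67-positive cells, 2 members (VEGFA and TXNIP) passed 2-fold upward and 1 (LDHA) downward in persister cells, where 9.76% and 9.69% of 9864 genes were. Among MKI67-negative cells, 2 were higher and 3 (LDHA, PDK1 and ADM) lower, where 10.2% and 12.8% of 10077 genes were. PDK1 sat at the edge, at 1.98-fold lower in MKI67-positive cells and 2.06-fold lower in MKI67-negative cells. The excess of VEGFA over the median of the other 8 genes was 2.82 in MKI67-positive and 2.86 in MKI67-negative cells.

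Between the states of 1 library, no member passed 2-fold. In the persister library 0 of 9 measured members was at least 2-fold higher or lower in MKI67-positive than in MKI67-negative cells, against 3.45% and 0.473% of 9510 genes. In the parental library 0 of 10 was, against 0.408% and 0.0942% of 9554 genes. Smaller differences went beyond counting error. VEGFA was 1.23-fold higher (1.17 to 1.28) in MKI67-positive persister cells and 1.18-fold higher (1.04 to 1.35) in MKI67-positive parental cells. TXNIP was at 0.804-fold (0.735 to 0.879) in MKI67-positive persister cells relative to MKI67-negative ones, and at 0.908-fold (0.740 to 1.12) in parental cells. ADM, under 5 CPM in both persister states, had 4.09 CPM in MKI67-positive and 2.49 CPM in MKI67-negative persister cells, and 6.97 CPM in MKI67-positive and 7.17 CPM in MKI67-negative parental cells. MKI67-positive cells were also deeper, at a median of 13900 UMIs in the positive and 9904 UMIs in the negative persister cells, and at 8217 and 6014 UMIs in the parental cells, and a shallow cell is more easily scored negative. What depth adds to these differences was not tested.

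The wider pathways gave the members their setting. The lists and the genes in them were drawn up with earlier results of these data known. Each count is to be read against the shares of all measured genes past 2-fold, 10.1% upward and 10.8% downward. Counts in the lists of glycolysis enzymes, of transport, of control, of oxygen sensing and of thioredoxin and MondoA are too small to be set apart from those shares. Of 17 glycolysis enzymes, all measured, 0 passed 2-fold upward and 2 passed it downward, with a median log2 difference of -0.47, and the list summed to 7998 CPM in persister and 11379 CPM in parental cells. The lower pair was LDHA and PGAM1, the mutase ahead of enolase, at 118 CPM in persister and 363 CPM in parental cells (3.06-fold lower). GPI and TPI1, the isomerases of upper glycolysis, followed at 1.99-fold and 1.77-fold lower.

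Some genes of transport and control were higher. Of 7 measured transporters of glucose and lactate (of 12), 2 passed 2-fold upward and 0 downward, median 0.12. These were SLC2A3, the glucose transporter GLUT3, with 31.5 CPM in persister and 10.6 CPM in parental cells, and SLC16A3, the lactate exporter MCT4, with 16.0 CPM in persister and 4.31 CPM in parental cells. SLC2A1, in the same list, was slightly lower. Of 14 measured regulators of glycolysis and pyruvate use (of 17), 1 was higher and 3 lower, median -0.32. PFKFB4, a bifunctional enzyme that sets the level of fructose 2,6-bisphosphate, had 99.6 CPM in persister and 13.8 CPM in parental cells (7.21-fold higher, 6.79 to 7.67). PDK3, another pyruvate dehydrogenase kinase, was 3.63-fold lower, and DLAT, a core subunit of pyruvate dehydrogenase itself, was 2.25-fold lower. PDK1 was the third gene past 2-fold downward.

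The hypoxia list was split. Of 21 measured targets (of 30), 4 passed 2-fold upward and 5 downward, median -0.24. This count rests on which genes were put in the list. PFKFB4, SLC2A3 and SLC16A3, all higher in persister cells, were counted in the lists of control and transport instead. STC2, which encodes the secreted protein stanniocalcin 2, had 29.8 CPM in persister and 3.92 CPM in parental cells (7.60-fold higher). AK4, a mitochondrial adenylate kinase, had 11.0 CPM in persister and 52.6 CPM in parental cells (4.77-fold lower), and HILPDA, a lipid droplet protein, had 9.60 CPM in persister and 33.9 CPM in parental cells (3.52-fold lower). The remaining higher targets beside VEGFA were DDIT4 and BHLHE40, and the remaining lower ones were ADM, PDK1 and MIF. DDIT4, BHLHE40 and MIF are named after their values were seen. DDIT4 and STC2 are members of the ATF4 list as well. With TMM 3 targets in place of 5 were lower.

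The genes that sense oxygen came next. Of 9 measured genes (of 13), 0 passed 2-fold in either direction, median 0.13. HIF1A had 231 CPM in persister and 200 CPM in parental cells (1.15-fold, 1.13 to 1.18). VHL was 1.65-fold and ARNT 1.48-fold higher. EPAS1, which encodes the related HIF2 alpha, had 0.880 CPM in persister and 0.284 CPM in parental cells, under the 5 CPM limit. Since HIF1A is controlled mainly at the level of the protein, its mRNA does not measure its activity.

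TXNIP was read beside the other genes of its pathway. Of 11 measured genes of the thioredoxin and MondoA list (of 13), TXNIP was the 1 at least 2-fold higher and TXNRD2, the mitochondrial thioredoxin reductase, the 1 at least 2-fold lower (2.03-fold), with a median of 0.09. With TMM 3 were higher and 0 lower. ARRDC4, the arrestin relative of TXNIP that MondoA also drives, had 36 UMIs or 0.453 CPM in persister and 54 UMIs or 0.613 CPM in parental cells, 0.738-fold (0.470 to 1.15). MLXIP was 1.45-fold lower, with 15.5 CPM in persister and 22.6 CPM in parental cells, and MLX was 1.11-fold lower. TXN2, the mitochondrial thioredoxin, was 1.82-fold lower and ARRDC1, a further arrestin-domain gene, 1.89-fold higher.

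The genes that receive VEGFA gave mixed values. Of 6 measured genes of the VEGF list (of 10), 3 passed 2-fold upward and 1 downward, median 1.12. Beside VEGFA these were the co-receptors NRP1, with 155 CPM in persister and 36.5 CPM in parental cells (4.25-fold higher), and NRP2, with 95.8 CPM in persister and 31.5 CPM in parental cells (3.04-fold higher). The receptor FLT1 had 2.14 CPM in persister and 7.82 CPM in parental cells (3.66-fold lower). The median rests on few genes and was -0.02 with no limit on CPM.

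Of the 9 lists, that of ATF4 targets had the largest median difference. All 15 genes were measured, 14 passed 2-fold upward in persister cells and 0 downward, median 2.50. CHAC1, a glutathione-degrading enzyme, had 59.8 CPM in persister and 1.03 CPM in parental cells (57.9-fold higher), and DDIT3, the stress transcription factor CHOP, had 422 CPM in persister and 19.1 CPM in parental cells (22.1-fold higher). ATF3 and SESN2 were 23.2-fold and 14.2-fold higher. The cell cycle list went the other way, with 0 of 34 genes higher, 21 at least 2-fold lower and a median of -1.16. Within MKI67-positive cells 7 of its 34 genes were at least 2-fold lower (median -0.53), and within MKI67-negative cells 32 were (median -2.21).

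**Figure D2:**
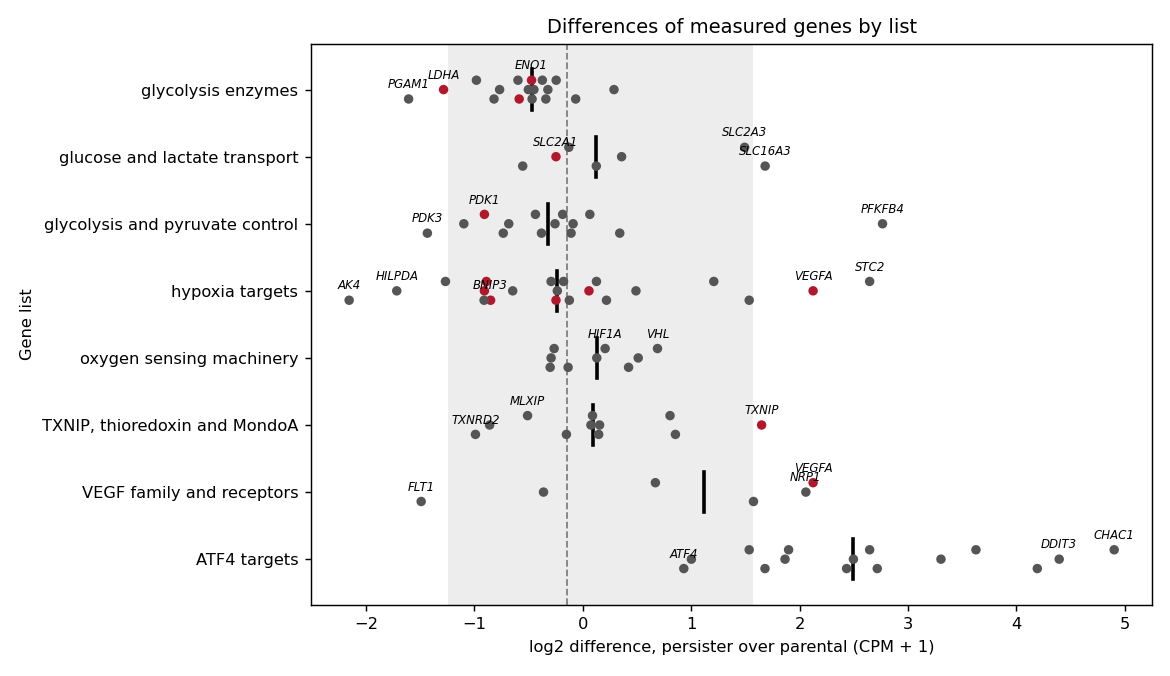
Log2 difference (CPM + 1), persister over parental, of each measured gene in 8 lists. Red points are the 10 genes of interest, grey points other genes, black bars list medians, the dashed line the median of all measured genes and the shaded band their central 90%. VEGFA lies at 2.12 on the right of a hypoxia list whose median is -0.24, and the ATF4 list has a median of 2.50.

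A higher sum can come from more cells with the RNA or from more of it per cell. With every cell thinned to 5000 UMIs, 5897 persister and 9094 parental cells remained, 708 and 1536 being shallower. VEGFA then had a UMI in 37.2% of persister cells (35.9 to 38.4, exact Clopper-Pearson) and in 10.6% of parental cells (10.0 to 11.3). Unthinned, the shares were 62.0% and 16.1%. Cells with 2 or more VEGFA UMIs made up 8.89% of persister and 0.693% of parental cells.

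TXNIP had a UMI in 10.3% of thinned persister cells (9.55 to 11.1) and in 3.13% of parental cells (2.79 to 3.51), or 17.5% and 5.06% unthinned. The T cell marker barcodes had VEGFA in 24.4% and TXNIP in 17.8% of 45 thinned barcodes. Unthinned, all 162 had them in 19.1% and 24.1%, at a median of 3568 UMIs. They also held melanoma RNA, with 12 melanoma markers at 624 CPM, against 1499 CPM in kept persister cells. Their shares are thus not those of T cells alone. The thinned shares of those 45 barcodes have wide intervals, 12.9 to 39.5% for VEGFA and 8.0 to 32.1% for TXNIP, which take in or lie near the shares in kept persister cells. T cells are known to express TXNIP, and neither library held a cell type that should lack either gene, so a share set by free RNA could not be measured here. By level, TXNIP had 24.9 CPM in kept persister cells and 63.1 CPM (47.4 to 82.4) in the T cell marker barcodes.

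LDHA was found in 62.4% of thinned persister cells and 91.7% of parental cells, and BNIP3 in 33.8% and 51.1%. ENO1 was found in 98.2% and 99.9%. Of the rarer RNAs, HK2 was found in 3.07% of persister and 4.87% of parental cells, PDK1 in 2.70% and 5.66%, NDRG1 in 3.66% and 3.48%, and ADM in 1.46% and 3.20%. SLC2A1 depended on depth: it was found in 16.2% of persister and 19.7% of parental cells when thinned, and in 32.2% and 29.2% when not. The thinned order is the one its CPM gave.

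**Figure D3:**
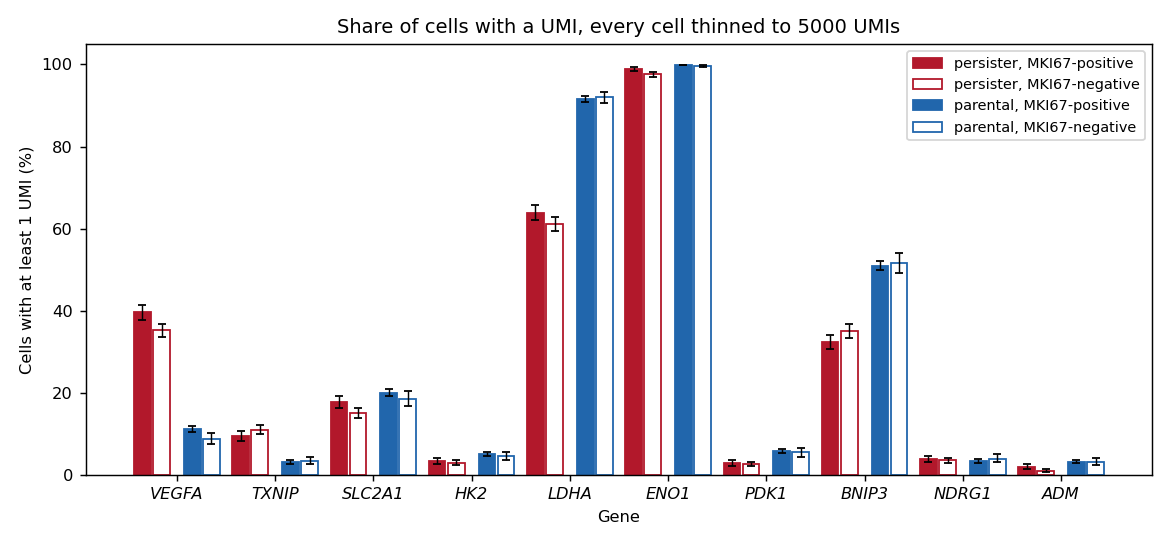
Share of cells with at least 1 UMI of each gene after thinning every cell to 5000 UMIs, in persister (red) and parental cells (blue), MKI67-positive (filled) and MKI67-negative (open). Bars start at 0 and whiskers are 95% exact Clopper-Pearson intervals. VEGFA and TXNIP stand higher in persister cells and LDHA and BNIP3 lower.

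The members also differed in how unevenly they were spread over cells. The variance of UMIs divided by their mean is near 1 when cells differ by sampling alone. For TXNIP it was 1.49 in persister cells, above 99.1% of 2338 genes of like mean (within 1.5-fold), and 1.25 in parental cells, above 99.6% of 2137 such genes. The 5% of persister cells with most TXNIP held 59.3% of its UMIs, at a mean of 0.130 UMIs per cell. Such a share is high for any rare RNA. The 5% of parental cells with most VEGFA, at a mean of 0.114 UMIs per cell, held 50.4% of its UMIs. VEGFA had 1.08 in persister cells, above 71.0% of genes of like mean, and 1.02 in parental cells, above 66.4%. TXNIP RNA was thus more unevenly spread than that of nearly all genes of like mean in both libraries, whereas VEGFA was nearer the middle of such genes. ENO1 had 2.14 in persister and 1.42 in parental cells, above 81.0% of 84 and 72.0% of 75 genes of like mean.

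**Figure D4:**
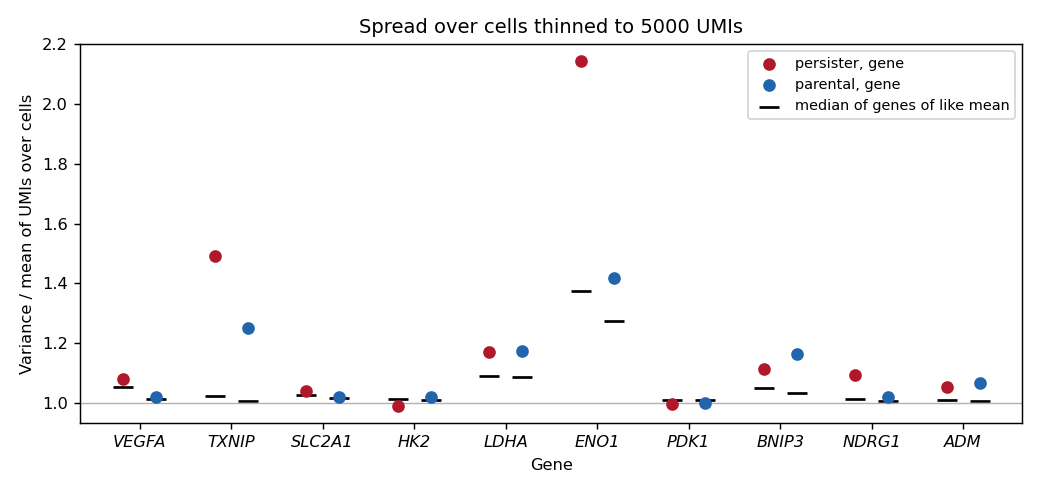
Variance over mean of UMIs across cells thinned to 5000 UMIs, for each gene in persister (red) and parental cells (blue), with black ticks at the median of genes of like mean. TXNIP stands at 1.49 and 1.25, well above its ticks.

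Cells of a library were next grouped by their own VEGFA UMIs after thinning, which gave 3706, 1667, 429 and 95 persister cells with 0, 1, 2 and 3 or more. HIF1A was at 199, 233, 289 and 350 CPM in these groups, with intervals of 192 to 205 in the first and 298 to 407 in the last. The 8 other hypoxia and glycolysis members summed to 1526, 1580, 1679 and 1832 CPM, of which ENO1 gave 1175, 1223, 1303 and 1509 CPM. LDHA was at 211, 207, 218 and 173 CPM and TXNIP at 26.3, 25.5, 26.1 and 27.4 CPM. Within the persister library, then, cells with more VEGFA had more HIF1A and ENO1 RNA, while LDHA and TXNIP showed no order.

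Other things moved along these groups. The cell cycle list summed to 2520, 2906, 3349 and 3282 CPM, the share of MKI67-positive cells was 43.1, 46.1, 54.1 and 47.4%, and the median mitochondrial share was 7.78, 7.70, 7.44 and 7.23%. The ATF4 list was at 2004, 2018, 2080 and 2192 CPM. In all kept cells it was at 2022 CPM in persister and 417 CPM in parental cells. Of its genes, DDIT3 showed no order along the persister groups, at 432.5, 417.8, 441 and 416.8 CPM. ATF3 was at 77.0, 76.4, 84.85 and 135 CPM. VEGFA counts varied little beyond sampling (variance over mean 1.08), so these groups are a coarse split. A link of ATF4 to VEGFA was not tested. The part that the cell cycle and mitochondrial RNA play in these orders was not tested. In parental cells with 0, 1 and 2 or more VEGFA UMIs (8127, 904 and 63 cells), HIF1A was at 204, 214 and 225 CPM, with overlapping intervals.

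**Figure D5:**
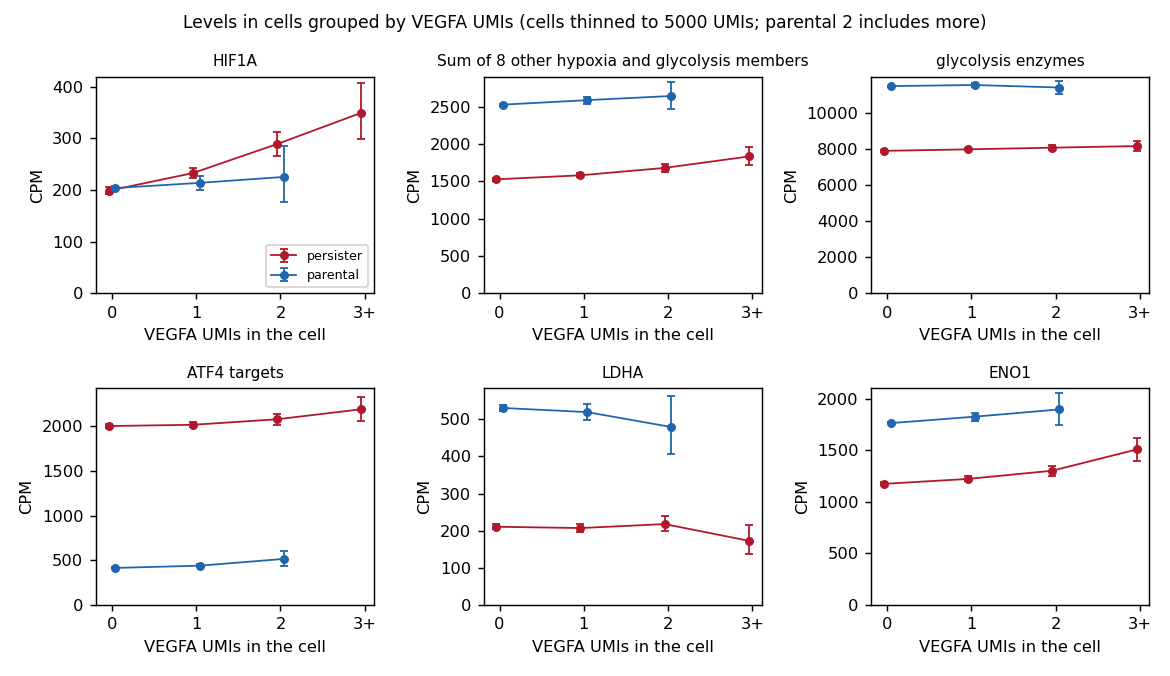
Level in CPM of HIF1A, of 3 summed lists and of LDHA and ENO1 in cells grouped by their VEGFA UMIs after thinning to 5000 UMIs, in persister (red) and parental cells (blue), the last parental group being 2 or more. Whiskers are 95% exact Poisson intervals. HIF1A climbs from 199 to 350 CPM across the persister groups, and LDHA shows no order.

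Across the 5897 persister cells, genes seen in at least 10% of cells were ranked by how closely their log UMI counts followed VEGFA. Mitochondrial and ribosomal genes and those with clone names were not named, here and for TXNIP. Of 4830 candidates HIF1A came first, at a Pearson r of 0.112. CCT5, SERPINE2, NCL and TPX2 came next, at 0.0908 to 0.085. All are weak correlations in sparse counts of cells from 1 library, and are descriptions only. In 9094 parental cells the leading genes were ASPM, MALAT1, CENPF, SPDL1 and CMTM7, the first at 0.0551, and HIF1A was in place 997 of 5060. For TXNIP the leading genes were TIMP1, PHLDA3, GNG2, TPT1 and NEFL in persister cells (first 0.0909), and SNHG12, IER2, ZFAND2A, ZFAS1 and GADD45A in parental cells (first 0.0622). VEGFA and TXNIP were close to unrelated, at 0.00191 in persister and -0.0168 in parental cells. The r of VEGFA with ATF4 was 0.00744 in persister cells. With the genes of the ATF4 list seen in at least 10% of those cells, it ran from -0.0134 (ASNS) to 0.0518 (PSAT1). Over all 45 pairs of members r ran from -0.0621 to 0.107 in persister cells, where LDHA with ENO1 was the highest and TXNIP with ENO1 the lowest.

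Grouped by TXNIP, 5289, 490 and 118 persister cells had 0, 1 and 2 or more UMIs. ENO1 was at 1219, 1083 and 1019 CPM and the 17 glycolysis enzymes at 7992, 7607 and 7447 CPM in these groups. VEGFA was at 95.9, 100 and 94.9 CPM. Cells with more TXNIP thus had less RNA of glycolysis enzymes, without a difference in VEGFA. The cell cycle list was lower in the same order, at 2746, 2386 and 2015 CPM, and its part was not tested. T cell markers summed to 9.53, 6.53 and 5.09 CPM, the last with an interval of 1.05 to 14.9, so they were not seen to be higher in cells with more TXNIP.

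In parental cells 8809, 261 and 24 had 0, 1 and 2 or more TXNIP UMIs. DDIT3 was at 17.1, 34.5 and 508 CPM in them, and in persister cells at 430, 420 and 395 CPM. Among the 24 parental cells, 9 had a DDIT3 UMI, and the highest of them held 29.5% of the 61 DDIT3 UMIs. None of the 24 barcodes was found in the persister library, which says little, since the libraries shared only 38 barcodes in all. VEGFA had 0 UMIs in the 24 cells. These few parental cells stand out for DDIT3, whereas within the persister library DDIT3 was high whatever the TXNIP count.

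Some counts carry a limit from annotation. How strand was used in counting is not stated in these sources, and VEGFA, SLC2A1, HK2, ENO1, PDK1 and BNIP3 each overlap a counted gene on the other strand, while SLC2A1 also overlaps 1 on its own strand. LDHA, ENO1, HK2 and BNIP3 have 6, 4, 1 and 39 pseudogenes by name in GENCODE, none of them counted, so reads that fit a copy could be lost and their levels are less certain.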

How the data were processed

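The authors deposited raw UMI counts for each gene in each barcode, as the whole-number matrices and, per the file headers, their integer type show. Cell Ranger 3.1.0 and GRCh38 are named in the submitters' processing notes, and no annotation release is stated in these sources. Barcodes with at least 500 genes, 1000 UMIs, at most 20% mitochondrial UMIs and fewer than 3 of 6 T cell markers (CD2, CD3D, CD3E, CD52, PTPRC, TRAC) were kept, and no doublets were called or removed. Counts were summed per library and state (MKI67-positive, at least 1 UMI) and divided by their totals. Genes with at least 5 CPM in either sum were measured, 2-fold ratios of CPM were counted, and log2 differences used a pseudocount of 1. Ratios have exact conditional intervals and shares Clopper-Pearson intervals, both 95%. Depth was matched by random thinning to 5000 UMIs. Positions are from GENCODE 29 and promoters from RefSeq. Named genes were the members, up to 4 measured genes per list with the largest log2 difference, a fixed set (HIF1A, EPAS1, ARRDC4, MLXIP, MLX) and the 5 genes most like VEGFA and TXNIP. Mitochondrial and ribosomal genes and those with clone names were not named by likeness. Members and lists were chosen with earlier results of these data known. Alternatives covered TMM scaling (edgeR 4.0.16), cell filters, CPM limits, thinning, pseudocount and the definition of state. Steps were tested on simulated data. Python 3.11.15, numpy 2.4.6, scipy 1.17.1 and pandas 2.3.3 were used.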

Additional observations from a re-analysis of the deposited data

Results flagged for a closer look

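ENO1 went in opposite directions between MKI67 states in the libraries: its fold of MKI67-positive over MKI67-negative cells was 1.2 in persister cells (1349 over 1127 CPM) and 0.983 in parental cells (1721 over 1750 CPM). The difference between these folds was not tested, and the parental one was above 1 under 3 of 10 alternatives.

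The persister barcodes left out for T cell markers held signal of both genes that were higher in persister cells. VEGFA had 69 CPM there (52.5 to 89.0) and TXNIP 63.1 CPM (47.4 to 82.4), above their 22.1 and 7.25 CPM in kept parental cells. The melanoma list summed to 624 CPM in these barcodes, with MIA at 440 CPM.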

How the results depend on the processing

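No paired analysis was possible because each group has 1 library. The log2 difference of VEGFA stayed between 2.04 and 2.24 and that of TXNIP between 1.58 and 1.77 in all kept cells over 9 alternatives each, and the excess of VEGFA over the other 8 genes between 2.75 and 2.92. NDRG1 changed sign in 1 of 9. Of 271 alternative values of counts and medians that answer a comparison, 252 stayed within 1.5 times or within their error. Of 932 other alternative values, 724 stayed the same, 206 moved and 2 reversed. In all kept cells the log2 differences of SLC2A1, HK2, LDHA, ENO1, PDK1, BNIP3 and ADM moved with TMM, without a change of sign. The cause of the changes below was not tested. TMM gave 1 member lower (3 without), 3 hypoxia targets lower (5), and 3 genes of the TXNIP list higher (1) and 0 lower (1). The last was also 0 (1) with the total taken without mitochondrial genes and with the stricter cell filter. Members lower in MKI67-positive cells were 2 (1) with cells thinned to 5000 UMIs and with states set by the cell cycle list. With no minimum CPM, which admits more genes, higher counts were 5 (2) in transport, 2 (1) in pyruvate control, 8 (4) in hypoxia targets and 1 (0) in oxygen sensing, and lower counts were 2 (0) in oxygen sensing and 3 (1) in the VEGF list, whose median was -0.020 (1.12). With at least 20 CPM, which leaves fewer genes, transport had 1 higher (2), and lower counts were 1 (3) in pyruvate control, 3 (5) in hypoxia targets and 0 (1) in the VEGF list. Without thinning, 4 members (2) had a higher share of persister cells, and the SLC2A1 difference was 3.1 percentage points (-3.54). Depth limits the members with few UMIs, among them TXNIP with 639 UMIs in parental cells and ADM with 264 UMIs in persister cells.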
